A study of Mus musculus with 15 samples.

Results

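The dystrophin-glycoprotein complex of skeletal muscle was followed through 9 of its genes, Dmd, Utrn, Dag1, Sgca, Sgcb, Sgcd, Sntb1, Dtna and Lama2, of the 39179 genes counted in mouse quadriceps. The 9 genes were chosen by name, as proteins of the complex or its ligand, and all 9 had enough counts to be tested in every comparison. RNA had been sequenced from quadriceps of 15 C57BL/6 mice, either wild type or homozygous for the knock-in mutation V338Y of Mrps5, a protein of the small subunit of the mitochondrial ribosome, which was made to raise misreading in mitochondrial translation. The groups were 3 mo wild-type (n = 4), 3 mo V338Y (n = 4), 19 mo wild-type (n = 3) and 19 mo V338Y mice (n = 4). The mutation is carried by the whole animal, so that every cell type of the muscle holds it. The comparisons ask how the genes of the complex differ between the ages within each genotype, between the genotypes at each age, and whether the age difference depends on the genotype.

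Dystrophin is a rod-shaped protein that ties the actin cytoskeleton under the muscle fibre membrane, the sarcolemma, to a group of membrane proteins. Of these, dystroglycan binds laminin in the basement membrane outside the fibre, and the sarcoglycans stabilise the link, while syntrophins and dystrobrevin hold signalling proteins on its inner side. Mutations of several of these genes cause muscular dystrophies, and utrophin, a close relative of dystrophin, can take its place at the sarcolemma when dystrophin is missing.

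The genes lie on 6 autosomes and the X chromosome (GRCm38, GENCODE). Dmd spans chromosome X from 82948870 to 85206141 on the plus strand, and is the X-linked member. Utrn (12382188 to 12869365) and Lama2 (26980036 to 27619758) are both on the minus strand of chromosome 10, and Sgca (94962791 to 94976327) and Sgcd (46896253 to 47988969) on that of chromosome 11. Dag1 is on chromosome 9 (108204634 to 108263958), Sgcb on chromosome 5 (73632749 to 73647790) and Sntb1 on chromosome 15 (55636388 to 55906949), each on the minus strand, and Dtna is on another autosome. Their longest annotated transcripts differed widely, from 1724 bases for Sgca to 14910 bases for Dmd, with 12382 for Utrn and 9614 for Lama2.

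RefSeq promoter windows were listed for 7 of the 9 genes. Shown here are the 250 bases before the first listed start of Dmd and Dag1, whose counts were higher at 19 mo in both genotypes, and of Sgca, whose counts were lower at 19 mo in V338Y mice (GRCm38.p6, each on the strand of its gene, 5′ to 3′). Capitals mark E-boxes, the CANNTG motif bound by the MyoD family of muscle transcription factors, and the CArG box bound by serum response factor, searched on both strands.
Dmd, chrX:82948620-82948869, plus strand: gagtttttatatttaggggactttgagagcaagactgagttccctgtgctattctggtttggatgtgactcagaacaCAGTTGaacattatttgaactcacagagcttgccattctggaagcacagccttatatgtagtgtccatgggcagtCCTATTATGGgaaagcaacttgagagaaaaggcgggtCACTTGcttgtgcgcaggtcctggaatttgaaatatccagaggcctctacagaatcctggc
Dag1, chr9:108263959-108264208, minus strand: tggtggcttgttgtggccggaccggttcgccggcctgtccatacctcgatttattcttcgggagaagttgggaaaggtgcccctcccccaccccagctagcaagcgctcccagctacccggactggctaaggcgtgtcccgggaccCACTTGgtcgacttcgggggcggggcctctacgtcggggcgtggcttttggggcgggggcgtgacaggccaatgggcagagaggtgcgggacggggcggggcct
Sgca, chr11:94976328-94976577, minus strand: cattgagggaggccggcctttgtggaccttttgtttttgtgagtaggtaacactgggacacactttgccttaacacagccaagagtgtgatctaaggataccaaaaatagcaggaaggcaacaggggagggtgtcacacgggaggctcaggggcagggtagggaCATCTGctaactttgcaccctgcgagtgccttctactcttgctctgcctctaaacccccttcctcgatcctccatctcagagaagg
The Dmd window held 2 E-boxes and, between them, 1 CArG box, and the Dag1 and Sgca windows held 1 E-box each. Of the windows not shown, that of Lama2, whose counts were lower at 19 mo in V338Y mice, also held 1 CArG box, and 1 E-box. The Utrn window held 7 E-boxes, that of Sgcd 2 and that of Sgcb 0, each with 0 CArG boxes. An E-box was present in 66.2% of 32851 windows of this length, and a CArG box in 1.47%. A match of letters in these windows is a description and does not show that a factor was bound.

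Between 8250653 and 18968132 counts were assigned to genes in a mouse. Values are given as CPM, a gene's counts relative to the size of its library after edgeR's TMM normalization, and age differences are log2 fold changes of 19 mo over 3 mo with their standard errors (SE) from edgeR's quasi-likelihood test. A gene was called when its Benjamini-Hochberg adjusted p was under 0.05. In the 3 mo mice Xist was at most 0.575 CPM and the Y-linked Ddx3y was 163 to 202 CPM, whereas in the 19 mo mice Xist was 506 to 631 CPM and Ddx3y at most 0.0827 CPM. The 3 mo libraries thus carried male and the 19 mo libraries female transcripts, although the methods describe female mice, and age and sex cannot be told apart in any age comparison. Mrps5 was 14.96 to 27.5 CPM, and as V338Y is a point mutation its level is no check of the genotype labels.

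Per kilobase of the longest transcript, alpha-sarcoglycan and dystrophin were the most abundant of the 9 transcripts. In 3 mo wild-type mice Sgca had 53.5 ± 3.27 CPM per kb (mean ± SD, n = 4) and Dmd 38.5 ± 4.46, followed by Sgcb with 26.8 ± 3.58. Dag1 (16.97 ± 1.48), Lama2 (16.5 ± 1.73), Dtna (14.1 ± 1.39) and Sgcd (12.5 ± 0.941) came next in CPM per kb, and each of these overlapped its neighbour within 1 SD. Utrn had 9.39 ± 1.35 CPM per kb and Sntb1 0.427 ± 0.162, the lowest of the 9. In 19 mo wild-type mice Dmd stood first, with 69.8 ± 2.31 CPM per kb (n = 3), above Sgca with 48.5 ± 0.811. The 19 mo V338Y mice had Dmd at 51.1 ± 7.61 CPM per kb and Sgca at 40.8 ± 3.78 (n = 4), which overlapped within 1 SD.

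With age, the transcripts of dystrophin, utrophin and dystroglycan were higher at 19 mo in both genotypes, by 1.39- to 1.88-fold. A correction for a trend with transcript length, described further on, left Dag1 called in both genotypes and Dmd in wild-type mice, whereas Utrn was called in neither genotype and Dmd in V338Y mice came to -0.0042 on the log2 scale. In wild-type mice these 3 of the 9 genes were called higher and 0 lower by edgeR (DESeq2 and an unadjusted p under 0.05 also gave 0 lower), where 36.2% of the 13657 genes tested were called, 18.3% higher and 17.8% lower. The share called in wild-type mice was thus close to that of all genes. In V338Y mice 4 were called higher (Dmd, Utrn, Dag1 and Sntb1) and 3 lower (Sgca, Sgcb and Lama2), where 46.9% of 13868 genes were called, 24.4% higher and 22.5% lower. Their log2 fold changes had medians of 0.21 (wild type) and -0.097 (V338Y), beside 0.019 and 0.072 over all genes tested. As whole muscle was sequenced, fewer fibres and less RNA per fibre cannot be told apart.

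**Figure D1:**
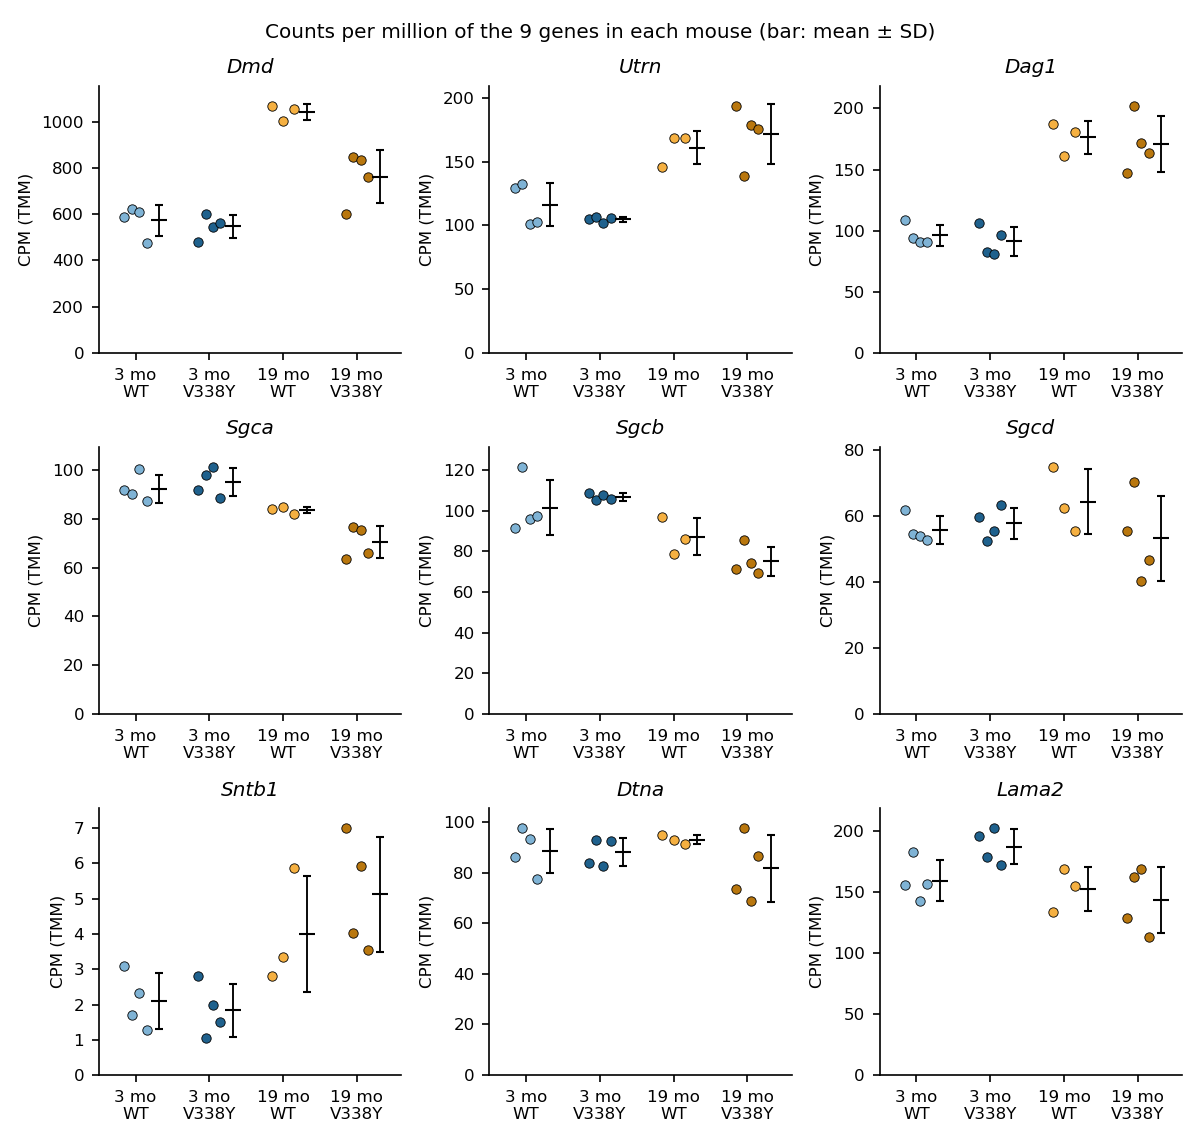
CPM of each of the 9 genes (y axis, from 0, a scale of its own for each gene) in each mouse (points) of the 4 groups, with the mean and SD as a bar beside the points. Dmd, Utrn and Dag1 lie higher in the 19 mo than in the 3 mo mice, whereas Sgca and Sgcb lie lower in the 19 mo V338Y mice.

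Dmd, the cytoskeletal core of the complex, was 586, 624, 609 and 477 CPM in the 3 mo wild-type mice 1 to 4. It was 1068, 1002 and 1053 CPM in the 19 mo wild-type mice 2, 4 and 5, so that every 19 mo mouse was above every 3 mo mouse. The log2 fold change was 0.86 (SE 0.11, edgeR adjusted p = 0.00079), a 1.82-fold difference. In V338Y mice Dmd was 479.6, 602, 546 and 562 CPM at 3 mo (mice 1 to 4) and 601, 849, 835 and 761 CPM at 19 mo (mice 2 to 5). Here mouse 2 of the 19 mo group did not exceed the highest 3 mo mouse, and the groups overlapped. The log2 fold change was 0.49 (SE 0.14, edgeR adjusted p = 0.0162).

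Utrn, which encodes the dystrophin relative utrophin, was 129, 132, 101 and 103 CPM in 3 mo wild-type mice and 146, 168 and 168 CPM in 19 mo wild-type mice. The groups did not overlap, and the log2 fold change was 0.47 (SE 0.12, edgeR adjusted p = 0.0162). This call depended on 1 mouse, since without mouse 4 of the 19 mo group the log2 fold change was 0.43 (edgeR adjusted p = 0.0649). The 3 mo V338Y mice lay within a narrow range, at 105, 107, 102 and 105 CPM, and the 19 mo V338Y mice at 194, 139, 179 and 176 CPM. All 4 older mice were above all 4 younger ones, with a log2 fold change of 0.73 (SE 0.11, edgeR adjusted p = 0.000975).

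Dag1, the single gene for alpha- and beta-dystroglycan, was 108, 94.1, 91.1 and 90.7 CPM in 3 mo and 187, 161 and 180.3 CPM in 19 mo wild-type mice. In V338Y mice it was 106, 82.9, 80.9 and 96.1 CPM at 3 mo and 147, 202, 171 and 163 CPM at 19 mo. In neither genotype did the age groups overlap, and the sizes were close, with log2 fold changes of 0.88 (SE 0.097, edgeR adjusted p = 0.000361) in wild-type and 0.91 (SE 0.12, edgeR adjusted p = 0.000469) in V338Y mice.

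Of the 3 sarcoglycan genes, Sgca and Sgcb fell with age in V338Y mice and Sgcd did not pass the test. Sgca, which encodes the muscle-specific alpha-sarcoglycan, was 92.0, 98.2, 101 and 88.5 CPM in 3 mo and 63.7, 76.6, 75.3 and 65.8 CPM in 19 mo V338Y mice. With no overlap between the ages, it fell by 0.42 on the log2 scale (SE 0.095, edgeR adjusted p = 0.0057). Sgcb, for beta-sarcoglycan, was 109, 105, 108 and 105 CPM in 3 mo and 71.0, 85.4, 74.0 and 69.4 CPM in 19 mo V338Y mice. It fell by 0.50 on the log2 scale (SE 0.088, edgeR adjusted p = 0.00169), again with the ages apart.

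In wild-type mice neither passed the test. Sgca was 91.8, 90.0, 100.2 and 87.1 CPM at 3 mo and 84.1, 84.7 and 82.1 CPM at 19 mo, with the ages apart but a log2 fold change of -0.14 (edgeR adjusted p = 0.208). The values of Sgcb were 91.6, 121, 95.7 and 97.1 CPM at 3 mo and 96.9, 78.4 and 86.2 CPM at 19 mo, which overlapped (log2 fold change -0.22, edgeR adjusted p = 0.183). For Sgcd, the gene of delta-sarcoglycan, the ages overlapped in both genotypes, with 52.8 to 62.0 CPM at 3 mo and 55.7 to 75.04 CPM at 19 mo in wild-type mice and 52.6 to 63.4 against 40.4 to 70.3 CPM in V338Y mice. Its log2 fold changes were 0.21 and -0.11 (edgeR adjusted p = 0.179 and 0.59).

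On the inner side of the complex, Sntb1, for beta-1-syntrophin, was scarce, with 11 to 71 counts in a mouse. In V338Y mice it was 2.82, 1.05, 1.99 and 1.498 CPM at 3 mo and 7.01, 4.02, 5.92 and 3.54 CPM at 19 mo. The ages did not overlap, and the log2 fold change of 1.43 (SE 0.33, edgeR adjusted p = 0.00612) was the largest of the 9 genes in that comparison and also the least precise. In wild-type mice Sntb1 was 3.10, 1.70, 2.32 and 1.27 CPM at 3 mo and 2.80, 3.33 and 5.87 CPM at 19 mo, with overlap. Its log2 fold change of 0.92 (SE 0.35) missed the threshold in edgeR (adjusted p = 0.0635) and passed it without mouse 2 of the 19 mo group (1.12, edgeR adjusted p = 0.0412) or without mouse 1 of the 3 mo group (1.15, edgeR adjusted p = 0.0372). Without mouse 5 of the 19 mo group, the highest, it was 0.54 (edgeR adjusted p = 0.251). Dtna, which encodes alpha-dystrobrevin, was 77.7 to 97.6 CPM at 3 mo and 91.3 to 94.9 CPM at 19 mo in wild-type mice, and 82.7 to 93.1 and 68.9 to 97.8 CPM in V338Y mice. Neither difference passed the test (log2 fold changes 0.071 and -0.097, edgeR adjusted p = 0.588 and 0.51).

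Lama2, the gene of the laminin alpha-2 chain that dystroglycan binds outside the fibre, was 195, 178, 202 and 172 CPM in 3 mo and 128, 162, 169 and 113 CPM in 19 mo V338Y mice. The ages did not overlap, and Lama2 fell by 0.37 on the log2 scale (SE 0.14), just inside the threshold (edgeR adjusted p = 0.048). When 1 mouse at a time was removed, the call was lost in 6 of 8 cases, and the log2 fold change ranged from -0.47 to -0.26. Without 19 mo mouse 2 or 5 the adjusted p from edgeR was 0.109 or 0.0943, and without 3 mo mouse 1, 2, 3 or 4 it was 0.0931, 0.0775, 0.121 or 0.0661. In wild-type mice Lama2 was 142 to 182 CPM at 3 mo and 134 to 169 CPM at 19 mo, a log2 fold change of -0.061 (edgeR adjusted p = 0.701).

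Counted by overlap, 4 of the 9 genes had their ages apart in wild-type mice, where 43.4% of all genes tested did, and 6 in V338Y mice, where 42.2% did. In wild-type mice these were Dmd, Utrn, Dag1 and Sgca, and in V338Y mice all the called genes except Dmd.

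**Figure D2:**
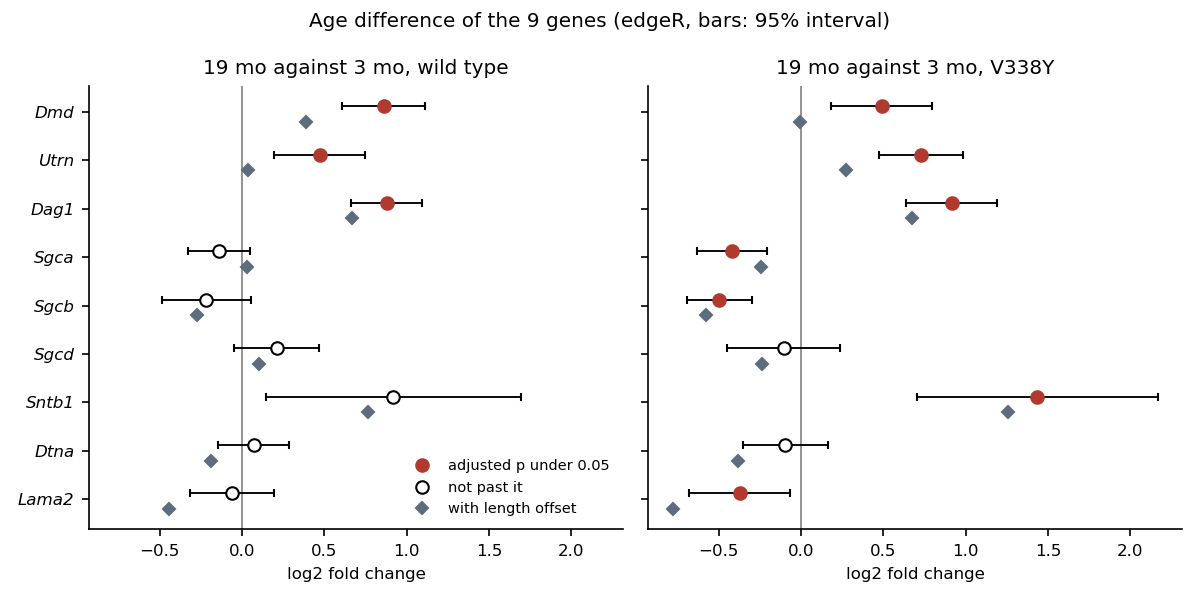
Log2 fold change of 19 mo over 3 mo (x axis) for the 9 genes in wild-type (left) and V338Y mice (right), from edgeR, with 95% intervals as bars and filled circles for an adjusted p under 0.05. Diamonds give the same values when each mouse's trend of counts with transcript length is taken out, which puts Dmd in V338Y mice at -0.0042 and leaves Dag1 at 0.66 and 0.68.

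Among the protein-coding genes tested, to which the length classes are limited, the age difference of a gene rose with the length of its transcript. In wild-type mice the median log2 fold change was -0.29 for genes with a longest transcript of up to 2 kb, and 0.42 for the 511 genes over 9 kb. In V338Y mice these medians were -0.30 and 0.44 (515 genes). Of the genes over 9 kb, 47.2% were called higher in wild-type and 51.7% in V338Y mice, more than among all genes. Dmd, Utrn and Lama2 fall in this class and Sgca in the shortest. Utrn in wild-type mice (0.47) and Dmd in V338Y mice (0.49) lay within 0.05 of the median of their class on the log2 scale, whereas Dmd in wild-type mice was 0.44 above it. Dag1, in the class of 4 to 6 kb, was 0.74 above the median of its class in wild-type and 0.73 above it in V338Y mice. The differences of Lama2 from its class were -0.48 and -0.82.

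When this trend was taken out as an offset, a step added after the trend had been seen, Dag1 kept log2 fold changes of 0.66 (edgeR adjusted p = 0.00131) and 0.68 (edgeR adjusted p = 0.00263) in wild-type and V338Y mice. Dmd remained called in wild-type mice at 0.39 (edgeR adjusted p = 0.0198), and in V338Y mice it turned to -0.0042 (edgeR adjusted p = 0.983). Utrn lost its call in both genotypes, at 0.036 (edgeR adjusted p = 0.779) and 0.27 (edgeR adjusted p = 0.0894). Of the sarcoglycans in V338Y mice, Sgcb kept its call at -0.58 (edgeR adjusted p = 0.00117), while Sgca at -0.24 did not (edgeR adjusted p = 0.0704). Lama2 was called lower in both, at -0.44 (edgeR adjusted p = 0.01) and -0.78 (edgeR adjusted p = 0.00208), and Dtna in V338Y mice at -0.38 (edgeR adjusted p = 0.0278). Sntb1 stayed higher in V338Y mice at 1.26 (edgeR adjusted p = 0.0119). What moved longer and shorter transcripts apart was not tested.

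**Figure D3:**
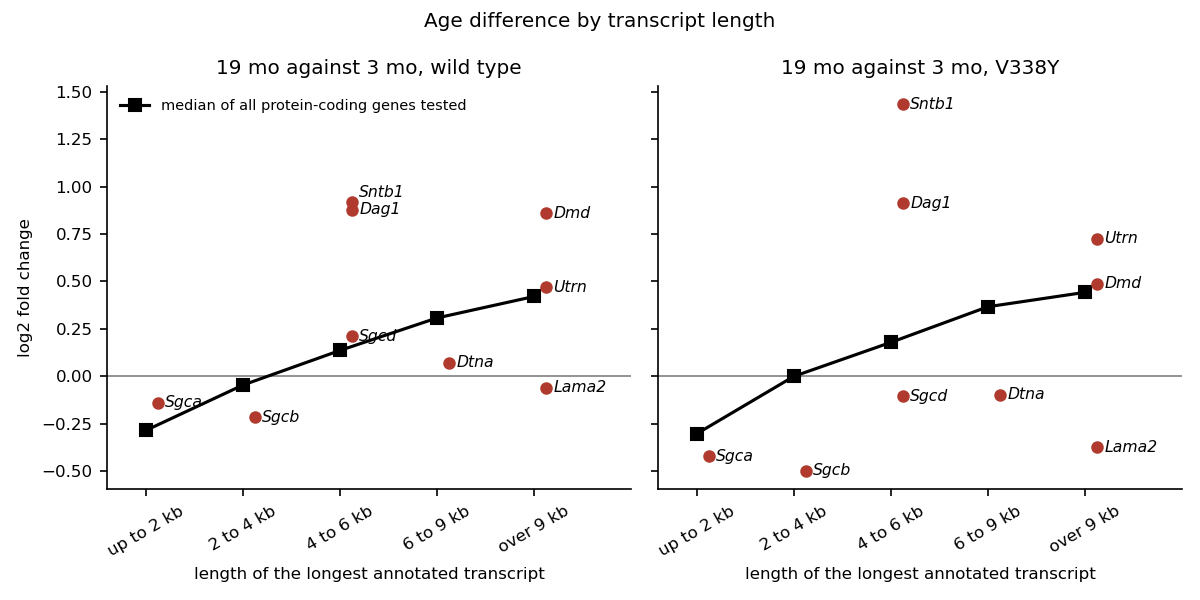
Log2 fold change of 19 mo over 3 mo (y axis) by length class of the longest transcript (x axis) in wild-type (left) and V338Y mice (right). Squares joined by a line are medians of all protein-coding genes tested in a class, rising from -0.29 to 0.42 and from -0.30 to 0.44, and circles are the 9 genes, with Dag1 well above and Lama2 below the line.

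Dmd is X-linked, and the 19 mo libraries were those with Xist. Over all X-linked genes the median age difference was 0.11 in wild-type mice, where 21.5% of 423 genes were called higher, and 0.13 in V338Y mice, where 26.3% of 426 were. The autosomal medians were 0.0098 and 0.058, with 18.5% and 24.8% called higher. The share of sex in the difference of Dmd was not tested.

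Between the genotypes 0 of the 9 genes were called at either age by edgeR or by DESeq2. Of all genes tested edgeR called 0.0750% of 13333 at 3 mo and 0.0434% of 13833 at 19 mo. DESeq2 called 0.495% and 0.448% of them. An unadjusted p under 0.05 was reached in edgeR by 1 of the 9 genes at 3 mo, Lama2, and by 1 at 19 mo, Dmd, where 9.70% and 8.93% of all genes tested reached it. At 19 mo Sgcd also reached it when same-numbered mice were paired as a replicate block (-0.40, edgeR adjusted p = 0.149), and Sgca in the fit of all 15 mice (-0.25, edgeR adjusted p = 0.239). Lama2 was 156, 182, 142 and 156 CPM in the 3 mo wild-type mice, which overlapped the V338Y values given above (log2 fold change 0.24, 95% interval 0.048 to 0.43, edgeR adjusted p = 0.439). For the other 8 genes at 3 mo the log2 fold changes were -0.15 to 0.076. At 19 mo all 4 V338Y mice had less Dmd than all 3 wild-type mice, with a log2 fold change of -0.42 (95% interval -0.78 to -0.063, edgeR adjusted p = 0.537). Sgca was likewise apart at 19 mo, at -0.22 (95% interval -0.46 to 0.018, edgeR adjusted p = 0.57). These were the 2 of the 9 genes without overlap at 19 mo, where 9.79% of all genes had none, against 0 of the 9 at 3 mo, where 4.71% of all genes had none.

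The difference between the age effects was tested as an interaction in a fit of all 15 mice. It was called for 0 of the 9 genes by edgeR and by DESeq2, and for 0% of all 14128 genes by edgeR, of which 9.63% had an unadjusted p under 0.05 and 26 genes were called by DESeq2. In edgeR 1 of the 9 genes, Sgca, had an unadjusted p under 0.05, and in DESeq2 Sgca and Dmd had one. For Sgca the interaction was -0.29 on the log2 scale in edgeR (95% interval -0.54 to -0.040, edgeR adjusted p = 0.48). For Dmd the interaction was -0.38 (95% interval -0.76 to 0.00047, edgeR adjusted p = 0.519), and for Sgcb it was -0.29 (edgeR adjusted p = 0.552). For Sntb1 and Lama2 the interaction was 0.50 and -0.32 (edgeR adjusted p = 0.777 and 0.594). Calls by edgeR of Sgca, Sgcb, Sntb1 and Lama2 in V338Y but not in wild-type mice are therefore not shown to differ between the genotypes.

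The ratio of Utrn to Dmd counts was formed within each mouse, which removes the scaling between libraries. It is a ratio of counts and not of molecules, as the transcripts differ in length. The ratio was 0.221, 0.212, 0.166 and 0.215 in 3 mo wild-type mice and 0.219, 0.177, 0.187 and 0.188 in 3 mo V338Y mice. In the 19 mo mice it was 0.136, 0.168 and 0.160 in wild type and 0.322, 0.163, 0.214 and 0.231 in V338Y. At 19 mo the V338Y mice had a mean of 0.232 ± 0.0662 (SD, n = 4), with mouse 2 the highest and mouse 3 the lowest, and the wild-type mice 0.155 ± 0.0164 (SD, n = 3). The groups overlapped, and the difference of 0.55 in log2 ratio did not pass the two-sided exact permutation test over mice (p = 0.0857, adjusted over the 4 comparisons p = 0.171, smallest possible p 0.0286). In wild-type mice the log2 ratio was lower at 19 mo by 0.39 (difference -0.39, exact permutation p = 0.0857, adjusted p = 0.171), and in V338Y mice it was higher by 0.23 (exact permutation p = 0.371, adjusted p = 0.495). At 3 mo the genotypes differed by -0.073 (exact permutation p = 0.514, adjusted p = 0.514).

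**Figure D4:**
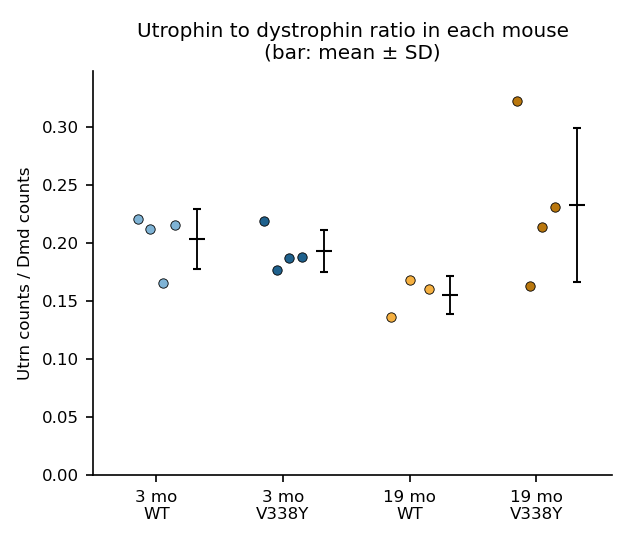
Utrn counts divided by Dmd counts (y axis, from 0) in each mouse (points) of the 4 groups, with mean and SD as bars. The 19 mo V338Y mice spread from 0.163 to 0.322, and the 19 mo wild-type mice from 0.136 to 0.168.

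From mouse to mouse the 9 genes did not move as a block. Taken as deviations of log2 CPM from the mean of each group over the 15 mice, Dmd and Sgca had the highest Pearson r among the 36 pairs, 0.665, and Utrn and Sgca the lowest, -0.483. Of 12979 genes compared in this way, Pde4dip (r = 0.959), Zfp507 (0.938) and 4932438A13Rik (0.936) were most like Dmd. Most like Utrn were Slc39a9 (r = 0.932), Lrrc8b (0.884) and Spred2 (0.874). The points of such a correlation share their libraries, with the depth and make-up of each, and the values are a description.

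Of 14 other genes of the complex and its partners, 11 could be tested, and Sgcz, Sntg1 and Sntg2 had too few counts. In wild-type mice 4 were called higher and 2 lower at 19 mo, and in V338Y mice 5 and 4, where 36.2% and 46.9% of all genes tested were called, with medians of 0.034 and 0.20 on the log2 scale. Cav3, for the muscle caveolin that shapes sarcolemmal pits, had log2 fold changes of -1.28 (SE 0.14, edgeR adjusted p = 0.000337) in wild-type and -1.502 (SE 0.17, edgeR adjusted p = 0.000186) in V338Y mice. Nos1, the neuronal nitric oxide synthase that the complex anchors through syntrophin, rose by 1.49 (SE 0.22, edgeR adjusted p = 0.00145) and 0.81 (SE 0.20, edgeR adjusted p = 0.00817). Plec, for the cytolinker plectin, had 0.84 and 0.58 (edgeR adjusted p = 0.000789 and 0.00624), and Ank3, for the membrane adaptor ankyrin-G, 0.77 and 0.60 (edgeR adjusted p = 0.00434 and 0.00778). With the length offset Nos1, Plec and Ank3 lost their calls in V338Y mice, at 0.40, 0.083 and 0.19. There 4 genes of this list were called in place of 9, and 42.2% of all genes in place of 46.9%. Sspn, for sarcospan, was also called lower in both genotypes, at -0.58 and -0.83, and is named after its values were seen.

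Alpha-dystroglycan binds laminin through a sugar chain that a series of enzymes builds. Of 18 such genes 17 were tested, all but Large2, and in wild-type mice 0 were called higher by edgeR or DESeq2 (2 at an unadjusted p under 0.05) and 5 lower, in V338Y mice 1 higher and 6 lower, with medians of -0.28 and -0.33. Called in all were thus 5 of 17 and 7 of 17, no more than the 36.2% and 46.9% of all genes. Called lower were 5 of 17 and 6 of 17, beside 17.8% and 22.5% of all genes. In wild-type mice the count was 2 without 19 mo mouse 4 and 3 without 3 mo mouse 1 or 3. Of all genes 24.4%, 31.3% and 27.2% were called in these fits. Rxylt1, a xylosyltransferase of this chain, had log2 fold changes of -0.73 (SE 0.15, edgeR adjusted p = 0.00519) and -0.74 (SE 0.11, edgeR adjusted p = 0.00061). B3galnt2, which adds N-acetylgalactosamine to the chain, had -0.45 and -0.57 (edgeR adjusted p = 0.00806 and 0.0134). Dpm1, a subunit of the enzyme that makes the mannose donor, had -0.32 and -0.70 (edgeR adjusted p = 0.0247 and 0.000595). Its wild-type call was lost without 19 mo mouse 4 or 5 (edgeR adjusted p = 0.0720 and 0.0606) or 3 mo mouse 1 or 4 (edgeR adjusted p = 0.0614 and 0.0526), with -0.36 to -0.27 on the log2 scale over the 7 fits. Pomt1, which starts the chain with its partner Pomt2, was the 1 called higher, at 0.58 in V338Y mice, and is named after its value was seen.

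Among 11 other basement membrane genes and laminin receptors, 5 were called higher and 2 lower in wild-type mice, and 5 and 1 in V338Y mice, beside 36.2% and 46.9% of all genes called in either direction, with medians of 0.26 and 0.24. The longest transcripts of these 11 genes had a median of 6046 bases. All tested protein-coding genes of 6 to 9 kb had median log2 fold changes of 0.31 and 0.37. Hspg2, for the proteoglycan perlecan, rose by 0.91 (SE 0.14, edgeR adjusted p = 0.00166) and 1.24 (SE 0.13, edgeR adjusted p = 0.000142), and Agrn, for agrin, by 0.77 and 1.15 (edgeR adjusted p = 0.00123 and 0.000328). The laminin chains Lama5 and Lamb2 were higher by 1.09 and 0.75 in wild-type (edgeR adjusted p = 0.000333 and 0.000479) and by 1.14 and 0.75 in V338Y mice (edgeR adjusted p = 0.00026 and 0.000197).

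The costamere joins the sarcomere to the sarcolemma beside the complex. Of its genes and those of membrane repair, 5 of 13 tested were called higher and 2 lower in wild-type mice, Krt8 having too few counts there, and 7 of 14 higher and 2 lower in V338Y mice, with medians of 0.20 and 0.38, beside the 36.2% and 46.9% of all genes called. The wild-type count of 7 was 3 without 19 mo mouse 4, a fit in which 24.4% of all genes were called. Flnc, for the actin crosslinker filamin C that binds sarcoglycans, rose by 1.45 (SE 0.23, edgeR adjusted p = 0.0019) and 1.42 (SE 0.25, edgeR adjusted p = 0.00157). Tln1, for talin of the integrin link, rose by 0.78 and 1.003 (edgeR adjusted p = 0.000559 and 0.000175), and Parva, for the integrin adaptor alpha-parvin, by 0.45 and 0.81 (edgeR adjusted p = 0.014 and 0.0012), a call lost in wild-type mice without 19 mo mouse 4 (0.41, edgeR adjusted p = 0.0539). Dysf, for the repair protein dysferlin, rose by 0.69 and 0.63 (edgeR adjusted p = 0.000554 and 0.00441). With the length offset Parva in wild-type (0.22) and Dysf in V338Y mice (0.31) lost their calls.

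Of 7 genes of regenerating fibres 6 were tested, all but Mymk. In wild-type mice 4 were called higher and in V338Y mice 3, beside the 18.3% and 24.4% of all genes called higher. By edgeR, by DESeq2 or at an unadjusted p under 0.05, 0 were lower in either genotype. In either direction 36.2% and 46.9% of all genes were called. The wild-type count of 4 was 2 to 3 with any 1 mouse left out, and 2 without 19 mo mouse 2 or 3 mo mouse 2 or 4. Without these mice in turn 34.6%, 31.9% and 29.7% of all genes were called. Ncam1, an adhesion molecule of regenerating and denervated fibres, rose by 1.18 (SE 0.18, edgeR adjusted p = 0.00157) and 1.58 (SE 0.36, edgeR adjusted p = 0.00618), and Myod1, a regulator of muscle differentiation, by 0.75 and 0.99 (edgeR adjusted p = 0.0465 and 0.00807). The wild-type call of Myod1 was lost without 19 mo mouse 2 or 4 (edgeR adjusted p = 0.138 and 0.106) or 3 mo mouse 1, 2 or 4 (edgeR adjusted p = 0.0971, 0.0704 and 0.0720), with 0.57 to 0.98 on the log2 scale over the 7 fits. In a fit of all 15 mice the count in wild-type mice was 2 in place of 4, with 36.4% of all genes called. Between the genotypes 0 genes of these 5 lists were called at either age by edgeR or by DESeq2. Of all genes edgeR called 0.0750% at 3 mo and 0.0434% at 19 mo, and DESeq2 0.495% and 0.448%. In edgeR 9 of 58 list genes tested at 3 mo and 8 of 59 at 19 mo had an unadjusted p under 0.05. Of all genes 9.70% and 8.93% had one.

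**Figure D5:**
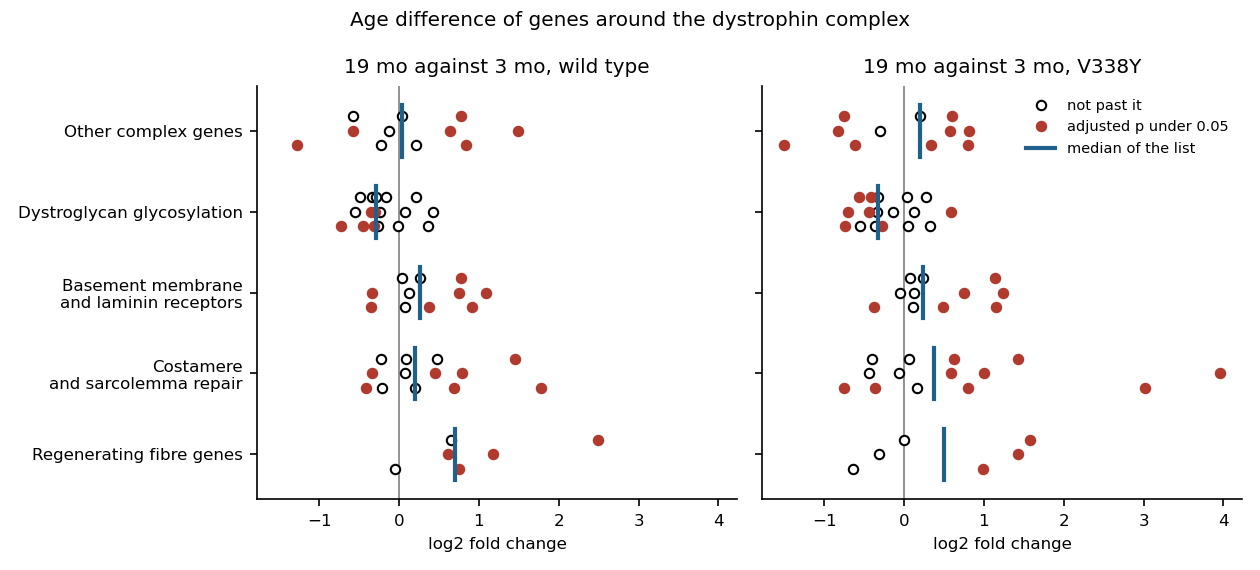
Log2 fold change of 19 mo over 3 mo (x axis) for the tested genes of 5 lists around the complex (rows, points spread vertically for legibility) in wild-type (left) and V338Y mice (right). Filled circles passed an adjusted p under 0.05 and bars are list medians, which lie below 0 for dystroglycan glycosylation alone.

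Markers of the muscle fibre and of other cells of the muscle were compared between the ages beside the genes of the complex. The summed CPM of 7 muscle fibre markers was 259024 to 303677 in 3 mo wild-type, 285995 to 316515 in 3 mo V338Y, 226332 to 282967 in 19 mo wild-type and 159737 to 260723 in 19 mo V338Y mice. Of these markers 2 were called lower in wild-type and 4 in V338Y mice, where 17.8% and 22.5% of all genes tested were. Called higher were 18.3% and 24.4% of all genes. Most of the sum came from Ttn and Myh4, with means of 115097 and 45592 CPM beside a mean sum of 196343 CPM in 19 mo V338Y mice. The 19 mo V338Y mice 2 and 5, with the lowest sums of muscle fibre markers, were also the lowest of their group in Dmd, Dag1, Sgca, Sgcb and Lama2, but not in Utrn, Sgcd, Sntb1 and Dtna. Of 6 endothelial markers 3 and 4 were called higher, with sums of 193 to 234 and 188 to 212 CPM at 3 mo and 270 to 448 and 273 to 450.3 CPM at 19 mo in wild-type and V338Y mice. Of 6 smooth muscle and pericyte markers 4 were called higher in each genotype, with 383 to 436 and 327 to 417 CPM at 3 mo and 460 to 732 and 453 to 677 CPM at 19 mo. The 5 Schwann cell markers, of which 3 and 4 were called higher, summed to 22.9 to 32.7 and 21.6 to 30.03 CPM at 3 mo and 35.6 to 47.9 and 35.2 to 86.0 CPM at 19 mo.

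Of all genes tested 18.3% were called higher and 17.8% lower in wild-type mice, and 24.4% and 22.5% in V338Y mice. Of 6 macrophage markers 3 were called higher in each genotype. Their sums were 165 to 243 and 191 to 331 CPM at 3 mo and 256 to 282 and 309 to 374 CPM at 19 mo. The 6 fibroblast markers, of which 1 was called higher and 2 lower in wild-type and 0 and 2 in V338Y mice, summed to 1042 to 1565 and 1506 to 1563 CPM at 3 mo and 920.4 to 1270 and 694 to 1533 CPM at 19 mo. Adipocyte markers (6 genes, 2 lower in wild-type and 2 higher in V338Y mice) summed to 274 to 1102 and 199 to 449 CPM at 3 mo and 146 to 287 and 161 to 882 CPM at 19 mo. Erythroid markers (5 genes, 2 lower in wild-type and 0 called in V338Y mice) summed to 157 to 322 and 164 to 319 CPM at 3 mo and 97.2 to 151 and 159 to 783 CPM at 19 mo. Neutrophil markers (5 genes, of which Ltf, Ngp and Camp had too few counts to be tested in wild-type mice) summed to at most 1.72 CPM at 3 mo and to 2.07 to 4.30 CPM in 19 mo wild-type mice. In the 19 mo V338Y mice 2 to 5 they summed to 2.30, 24.2, 4.42 and 545 CPM, and 5 of 5 were called higher. The part of these cells in the differences of Dmd, Utrn, Dag1, Sgca, Sgcb, Sntb1 and Lama2 was not tested.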

How the data were processed

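RNA of quadriceps from 15 mice was sequenced. Per the labels the processing tools were CASAVA 1.8, bcl2fastq 1.8.4 and STAR 2.4.2a. The authors assigned reads to genes with RSEM, which divides a read matching several genes among them, and deposited 1 whole-number expected count per gene and mouse, not scaled for depth or length. The labels name GRCm38 and GRCh37 as builds, whereas the methods name GRCm37. Symbols, positions and transcript lengths were taken here from GENCODE M21 (GRCm38), in which 37693 of 39179 genes were found. The 9 genes and all lists were chosen with earlier results of these data known.

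A gene was kept when 50% or more of the mice of either compared group had 10 or more counts. Groups were assigned by the labels, and each pair of groups was fitted alone (all 15 mice for the interaction) in R 4.3.3 with edgeR 4.0.16, TMM normalization and the quasi-likelihood test, adjusted by Benjamini-Hochberg over all genes tested. The p-values measure the spread among these mice. Depth was 8250653 to 18968132 counts per mouse, 0 of 105 pairs of mice were identical, and within groups the chi-square between mice was 5.85 to 111 per degree of freedom, above counting noise. The Utrn to Dmd ratio was compared by two-sided exact permutation tests. Alternatives were RLE size factors, DESeq2 1.42.0, no filter, leaving out the 10 most counted genes, a fit of all 15 mice, the mouse number as a replicate block, and each mouse left out in turn. A length offset (each mouse's trend of log2 CPM with the length of the longest transcript) was added after the data were seen. At 19 mo the 3 same-numbered pairs of wild-type and V338Y mice had correlations of their deviations of 0.132 to 0.400. The 9 pairs of unlike number had -0.407 to 0.467. The labels do not say what a number marks, and the main fits and tests did not pair mice at either age.

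The text names all 9 genes, and from each list up to 4 genes with the smallest p in wild-type mice among those called with age in both genotypes. For Dmd and Utrn it names the 3 genes most alike by Pearson r, and it names Mrps5, Xist and Ddx3y as checks. Genes outside this rule are said to be, and some genes of the lists are not reported here by name. The code was tested on simulated counts.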

Additional observations from a re-analysis of the deposited data

Results flagged for a closer look

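Of 30 groups of 4 mice examined (the CPM of the 9 genes and the Utrn to Dmd ratio), 1 held a mouse that stood apart from the others. The Utrn to Dmd ratio of 3 mo wild-type mouse 3 was 0.166, below the other 3 mice of its group at 0.212 to 0.221. Its gap to the nearest mouse was 0.837 of the range of the group, above Dixon's 95% critical value for 4 mice. Chance alone gives such a value in about 1 in 20 groups.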

How the results depend on the processing

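The number of the 9 genes called between the genotypes, or for the interaction, was 0 in every alternative run. With age it was 2 to 4 in wild-type and 5 to 7 in V338Y mice over all alternatives, against 3 and 7. RLE size factors, the fit without the 10 most counted genes and the fit of all 15 mice changed no call of the 9 genes. DESeq2 and the fit with no filter also called Sntb1 in wild-type mice (0.91 and 0.89 on the log2 scale, adjusted p = 0.04995 and 0.0487), and the latter lost Lama2 in V338Y mice (-0.39, edgeR adjusted p = 0.0541).

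With the length offset 4 values turned in sign, Sgca (0.032) and Dtna (-0.19) with age in wild-type mice, Dmd with age in V338Y mice (-0.0042) and Dtna between genotypes at 3 mo (0.014). Depth limits Sntb1 most, at 11 to 71 counts.

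Under a replicate block by mouse number, Utrn in wild-type mice (0.43, edgeR adjusted p = 0.119) and Dmd (0.41, edgeR adjusted p = 0.0952) and Lama2 (-0.26, edgeR adjusted p = 0.162) in V338Y mice lost their age calls, and 2 and 5 of the 9 genes were called. Same-numbered mice had correlations of 0.00482 to 0.0158 (2 pairs) and -0.136 to 0.0148 (3 pairs) across the ages and -0.162 to 0.141 (4 pairs) across the genotypes at 3 mo. Between the genotypes at 19 mo the block left Dmd at -0.48 (edgeR adjusted p = 0.174) and changed no call of the 9 genes. Of the lists, the block took those called in dystroglycan glycosylation from 5 to 1 in wild-type and from 7 to 4 in V338Y mice. Those of the basement membrane and of the costamere went from 7 to 4 each in wild-type mice. The share of all genes called with age fell as well, from 36.2% to 16.3% (wild type) and from 46.9% to 39.7% (V338Y). Among the genes named, B3galnt2, Dpm1 and Parva lost their calls in wild-type mice and B3galnt2 in V338Y mice. For the Utrn to Dmd log2 ratio the paired differences were -0.50 and 0.28 with age in wild-type (2 pairs) and V338Y mice (3 pairs). Between genotypes they were -0.073 at 3 mo (4 pairs) and 0.71 at 19 mo (3 pairs). An exact test over the signs of the paired differences gave p = 0.5, 0.75, 0.375 and 0.25 in that order. Its smallest possible p is 0.5 for 2 pairs and 0.25 for 3. With so few pairs it cannot give a p under 0.05 in any of these comparisons, and it decides nothing here.

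Leaving out each mouse in turn gave 2 to 4 called genes with age in wild-type and 6 to 7 in V338Y mice. The log2 ratio of Utrn to Dmd then ranged from -0.49 to -0.30 with age in wild-type, from 0.062 to 0.39 in V338Y, from -0.17 to -0.030 between genotypes at 3 mo and from 0.38 to 0.71 at 19 mo. Some uncalled log2 fold changes crossed 0 in these fits. They were Lama2 with age in wild-type mice (-0.15 to 0.020), Sgcd with age in V338Y mice (-0.28 to 0.0026), Dtna (-0.066 to 0.040) and Sntb1 (-0.45 to 0.092) between genotypes at 3 mo, Dag1 (-0.095 to 0.045) and Lama2 (-0.16 to 0.039) at 19 mo, and Dag1 in the interaction (-0.062 to 0.12). The cause was not tested.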
